A study of Mus musculus with 6 samples.

Results

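The collagen genes were all genes whose symbol is Col, a number, the letter a and another number, with nothing after it. The rule used no measured value and found 44 genes among the 32285 of the count tables. Their levels were described in single cell RNA sequencing of dorsal skin from wildtype FVB male mice at postnatal days 55 to 57, whose back hair was shaved and waxed to start a new round of hair growth. Skin was taken at the start (0 h), early after depilation (4 h and 16 h) and then at 2 d, 4 d and 6 d. Each time point was 1 library, in which the cells of 2 mice were mixed in equal numbers, so the mice cannot be told apart and no test between single time points was possible. In all, 50502 cells were analysed, 6520 to 11032 per library, and 367 cell barcodes were shared between libraries.

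Collagens are proteins of 3 chains wound into a triple helix. The fibrillar types give the dermis its tensile strength and are made mainly by fibroblasts, while the basement membrane and anchoring types lie at the border on which epithelial cells sit, and many of these are made by the epithelial cells themselves. The hair follicle is surrounded by such a membrane, across which it faces the dermal papilla (DP), a cluster of mesenchymal cells at its base.

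Cells were grouped by clustering without the collagen genes and named after marker genes, so each name stands for cells like that type. The epithelial classes were outer bulge cells (OB1, OB2 and OB3), inner bulge (IB), inner root sheath (IRS1, IRS2 and IRS3), basal and suprabasal upper hair follicle (uHF.B and uHF.SB), basal and suprabasal interfollicular epidermis (IFE.B and IFE.SB) and sebaceous gland (SG). The others were DP/fibroblast, melanocyte, Langerhans and T cells. A level is given in CPM, the UMIs (counted RNA molecules) of a gene scaled to the summed UMIs of that class in that library (counts per M). The reads come from the 3' end of each RNA, so gene length does not scale the counts. Series of 6 values run from 0 h to 6 d. Intervals are exact Poisson 95% intervals for levels and exact binomial 95% intervals for shares, and both cover counting error only.

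The sequence before the start of 5 members is shown because their levels carry the patterns described next: Col4a5 and Col4a6, a divergent gene pair that was low at 4 h, Col17a1, the most abundant member, Col23a1, which was high at 4 h, and Col5a1, which rose in OB1 cells. The sequences are from RefSeq, build GRCm38.p6, where 35 members had an entry, and each stops before the first annotated exon. They lie at chrX:141475169-141475384 (plus strand), chrX:141474077-141474326 (minus strand), chr19:47692095-47692292 (minus strand), chr11:51289670-51289919 (plus strand) and chr2:27886175-27886424 (plus strand). Capitals mark GGGCGG or CCAAT on either strand.
Col4a5: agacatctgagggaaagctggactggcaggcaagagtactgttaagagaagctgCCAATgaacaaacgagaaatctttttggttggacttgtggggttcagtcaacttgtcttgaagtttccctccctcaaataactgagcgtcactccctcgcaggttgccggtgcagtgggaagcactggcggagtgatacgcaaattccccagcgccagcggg
Col4a6: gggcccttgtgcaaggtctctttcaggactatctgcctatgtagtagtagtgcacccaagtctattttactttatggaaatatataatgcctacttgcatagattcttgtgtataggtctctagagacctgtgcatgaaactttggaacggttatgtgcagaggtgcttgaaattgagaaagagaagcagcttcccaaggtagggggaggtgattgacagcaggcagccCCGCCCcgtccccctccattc
Col17a1: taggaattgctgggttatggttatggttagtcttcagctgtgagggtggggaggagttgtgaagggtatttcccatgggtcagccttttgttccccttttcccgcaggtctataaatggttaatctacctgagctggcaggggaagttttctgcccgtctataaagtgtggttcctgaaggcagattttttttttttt
Col23a1: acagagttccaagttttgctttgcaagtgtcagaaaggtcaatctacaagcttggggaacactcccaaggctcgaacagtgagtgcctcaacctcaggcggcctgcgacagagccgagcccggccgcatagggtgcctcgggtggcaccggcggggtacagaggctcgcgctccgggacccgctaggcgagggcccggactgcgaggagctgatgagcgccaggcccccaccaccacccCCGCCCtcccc
Col5a1: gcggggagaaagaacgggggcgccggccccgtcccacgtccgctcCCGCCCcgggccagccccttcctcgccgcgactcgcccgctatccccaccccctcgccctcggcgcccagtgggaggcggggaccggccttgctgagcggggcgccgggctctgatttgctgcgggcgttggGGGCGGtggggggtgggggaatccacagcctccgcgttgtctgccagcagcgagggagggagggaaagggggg
The RefSeq starts of Col4a5 and Col4a6 were 1342 bases apart. CCAAT was in the Col4a5 stretch and in 30.5% of all promoters over 216 bases, and GGGCGG was in the Col4a6, Col23a1 and Col5a1 stretches and in 32.7% of all promoters over 250 bases. TGANTCA, also searched on both strands, was in none of the 5 stretches and in 6.75% of all promoters over 250 bases. These matches describe the letters of the windows only.

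Collagen RNA in these cells was mostly epithelial, and mostly Col17a1, the transmembrane collagen of the hemidesmosome. Col17a1 held 324923 of the 468326 collagen UMIs. Next came Col18a1, a basement membrane collagen, with 31700 UMIs, Col7a1, which forms anchoring fibrils, with 19445, and Col23a1, a transmembrane collagen, with 15822. All 44 members had at least 1 UMI. The 25 with at least 200 UMIs are described by level, and the other 19 had these total UMIs: Col2a1 36, Col5a3 42, Col11a1 100, Col11a2 128, Col24a1 1, Col9a1 2, Col9a2 42, Col19a1 43, Col20a1 186, Col22a1 4, Col4a3 185, Col10a1 2, Col13a1 22, Col25a1 119, Col6a4 5, Col6a5 4, Col6a6 4, Col26a1 21 and Col28a1 22.

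**Figure D1:**
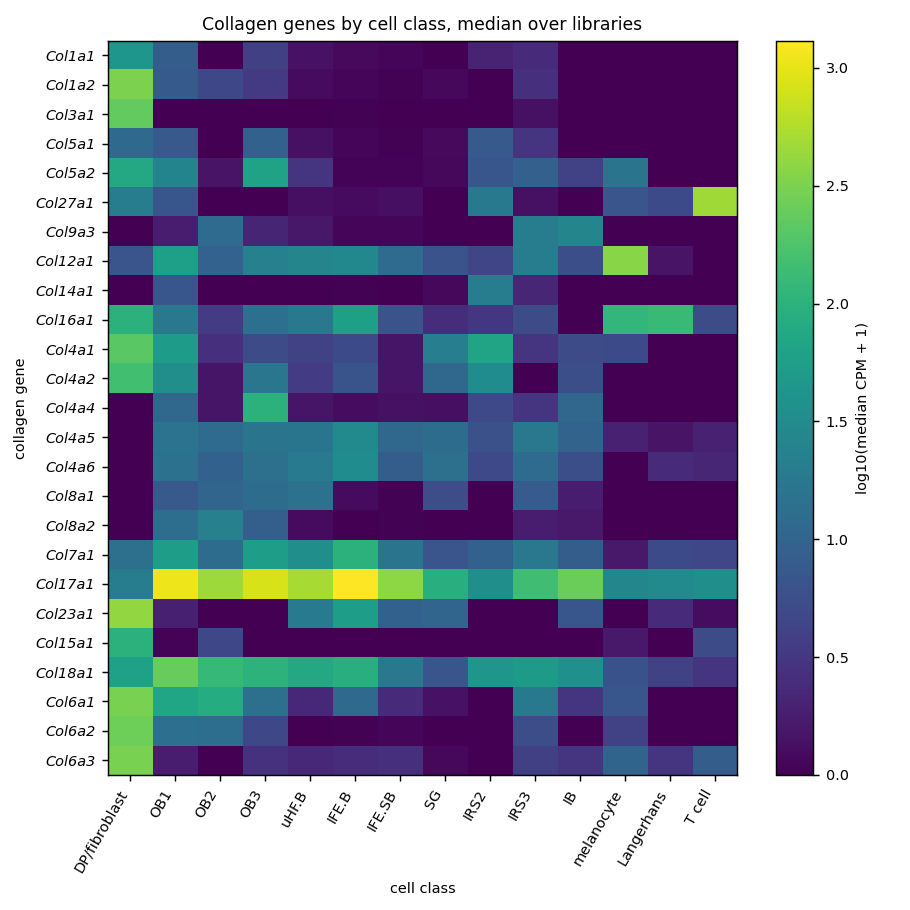
Median over libraries of the level of 25 collagen genes (rows) in 14 cell classes (columns), coloured by log10 of the median CPM plus 1. Col17a1 is brightest in IFE.B (median 1303 CPM) and OB1 cells (1084 CPM), and Col1a2, Col3a1 and the type VI genes are brightest in the DP/fibroblast column.

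IFE.B cells held 59.2% of all collagen UMIs with 33.4% of the cells, and OB1 cells held 12.4% with 10.2%. The 208 DP/fibroblast cells held 1.27% (interval 1.24 to 1.3%), and 0.25% without the 4 d library. Per cell class, collagen made up 0.803% of all UMIs in DP/fibroblast cells, 0.184% in IFE.B, 0.17% in OB1 and 0.0481% in T cells. Over the pooled libraries the dermal class was thus the richest in collagen for its RNA, yet a small part of the total. By library it was the richest at 4 h, 4 d and 6 d, at 0.423, 1.1 and 0.501%. At 0 h and 16 h it was at 0.196 and 0.163%, below OB1 cells at 0.231 and 0.218%. At 2 d it was at 0.142%, below IFE.B cells at 0.152%. Its leading members were Col1a2 (21.4% of its collagen UMIs), Col3a1 (19.2%) and Col1a1 (16.8%), while Col17a1 made up 0.893% there and 75.8% in IFE.B cells.

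Free RNA can put UMIs in cells that do not make a gene, so each epithelial class was set against the T cells of the same library. Over all epithelial cells, the interval of 9 of the 35 members with at least 10 counts lay above that of T cells in at least 4 libraries, beside 14.3% of all genes with as many counts: Col12a1, Col16a1, Col4a5, Col4a6, Col7a1, Col17a1, Col23a1, Col18a1 and Col6a1. By class, with the share of all genes beside each, it was 12 of 29 in OB1 beside 14.4%, 9 of 27 in IFE.B beside 13.4%, 9 of 25 in uHF.B beside 14.4%, 8 of 24 in OB3 beside 10.2%, 5 of 24 in IFE.SB beside 13.4%, 4 of 18 in OB2 beside 9.83% and 2 of 19 in uHF.SB beside 11.6%. At 0 h T cells had 570492 UMIs in all, against 65602293 in epithelial cells, so their intervals were wide. A member at a low level could fail the rule for that reason, and failing it does not show that its UMIs were free RNA. T cells are no background for Col27a1, a fibrillar collagen, because their own level was the highest of any class, at 426, 521, 532, 505, 329.6 and 230.1 CPM.

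Among the fibrillar collagens, Col1a1 and Col1a2, the chains of type I collagen, measured 41.8, 259, 0, 0, 2184 and 43.2 CPM and 62.7, 561, 43, 56.9, 2586 and 691 CPM in DP/fibroblast cells. Col3a1, the type III collagen, measured 209, 86.3, 172, 256, 2253 and 873 CPM. All 3 were highest at 4 d. In bulk sums of a class, fewer cells making a gene and less RNA per cell cannot be told apart, and here single cells carried much of the sum. One cell held 1022 of the 3142 UMIs of these 3 genes at 4 d, and at 4 h one cell held 38 of 42. Leaving out the highest cell of each library, an alternative chosen after seeing the data, took their summed level from 7023 to 4773 CPM at 4 d and from 906 to 92.4 CPM at 4 h.

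The DP/fibroblast class held 19, 17, 14, 8, 126 and 24 cells, too few for a time course test, and it was mixed. A cluster of 94 cells, 74 of them from 4 d, carried fibroblast genes (Dcn at 873 CPM) together with the endothelial gene Cldn5 (399.6 CPM). By its mean log2 difference from the other dermal cells it scored highest for endothelial markers (1.94, 5 of 8 up). Fibroblast markers came second (1.46). A cluster of 66 cells, all from 4 d and 6 d, carried the DP genes Sox2 at 173 CPM and Hhip at 577 CPM, against 8.88 and 172 CPM in the first. The DP genes Rspo3 (1039 and 1276 CPM) and Corin (441 and 563 CPM) were in both. An unnamed cluster of 48 cells held all 19 cells of 0 h, 14 of the 17 of 4 h and 11 of the 14 of 16 h. Early and late dermal levels thus come from different clusters. The unnamed cluster had Rspo3 at 54.2, Corin at 31 and Hhip at 7.74 CPM. Its Krt14 was at 1966 CPM, against 1267 and 1011 CPM in the first and second clusters. The fibroblast genes Dcn, Pdgfra and Dpt were at 124, 132 and 116 CPM in it. Rspo3, Corin and Hhip are among 9 DP markers, which summed to 899, 324 and 731 CPM in the class at 0 h, 4 h and 16 h. The 10 fibroblast markers summed to 188, 1014 and 237 CPM there. Whether the early levels are those of DP cells was not tested. Col1a1 measured 2856, 62.5 and 108 CPM in these clusters in that order, and Col3a1 2623, 849 and 178 CPM. Col1a1 was thus concentrated in the first cluster, while Col3a1 was also found in the second. A few cells carried most of these levels. At 4 d, 30 cells of the class held 2644 of the 3142 UMIs of Col1a1, Col1a2 and Col3a1. They had Dcn at 2524 CPM, against 3.03 CPM in the other 96 cells. Without the cell highest in the 3 genes, Col1a1 of the whole class at 4 d was 1160 CPM.

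The summed markers of this class were 188, 1014, 237, 199, 1491 and 441 CPM for 10 fibroblast genes and 899, 324, 731, 711, 3645 and 3690.1 CPM for 9 DP genes. They were 0, 1705, 3354, 2845, 291 and 25.9 CPM for 8 endothelial genes and 5789.6, 11501, 6386, 7454, 2299.9 and 3967 CPM for 7 IFE.B genes. The fibroblast markers were thus highest at 4 d, as were Col1a1, Col1a2 and Col3a1, and the endothelial markers lay above the fibroblast and DP markers at 4 h, 16 h and 2 d. Of 6 macrophage markers, Lyz2, C1qa, C1qb, Cd68 and Mrc1 had no UMI, and neither had the mural markers Myh11, Rgs5 and Des. The study's methods describe trypsin for telogen skin, and collagenase and hyaluronidase before trypsin for anagen skin, and which libraries had which is not given in the sources used here. The part of these markers and of the digestion in the dermal levels was not tested.

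Of all UMIs of Col1a1, Col1a2 and Col3a1, 66.5% (interval 65.2 to 67.8%) lay in DP/fibroblast cells, 19.6% in IFE.B and 9.63% in OB1 cells. Without the 4 d library the dermal share was 34.2%. The IFE.B signal came from 2 barcodes at 4 d, which held 946 of the 960 UMIs. They had 26670.3 CPM of Krt14, a basal keratinocyte keratin, and 1950.0 CPM of Dcn, a dermal proteoglycan, where the other 2026 IFE.B cells had 28055 and 0.543 CPM. Without them the summed IFE.B level at 4 d was 1.09 CPM, and in the other libraries it was 0.106 to 0.59 CPM.

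In OB1 cells the 3 genes summed to 8.66 to 39.1 CPM and no cell held more than 8 of their UMIs, against 0 to 1.56 CPM in T cells. By the rule set against T cells, Col1a1 and Col1a2 were above them in 3 of 6 OB1 libraries each and Col3a1 in 0, so none passed. The fibroblast markers in OB1 cells summed to 44.6, 11.2, 10.9, 24.4, 5.94 and 8.69 CPM, highest at 0 h, the library in which the 3 genes were highest too, and their part in these levels was not tested. Col3a1 had no UMI in OB1 cells from 0 h to 2 d, where Col1a1 and Col1a2 had 71, 35, 34 and 47 UMIs together. In DP/fibroblast cells Col3a1 made up 9.52 to 81.8% of the 3 genes. The 3 genes were thus not in 1 ratio in OB1 and dermal cells.

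**Figure D2:**
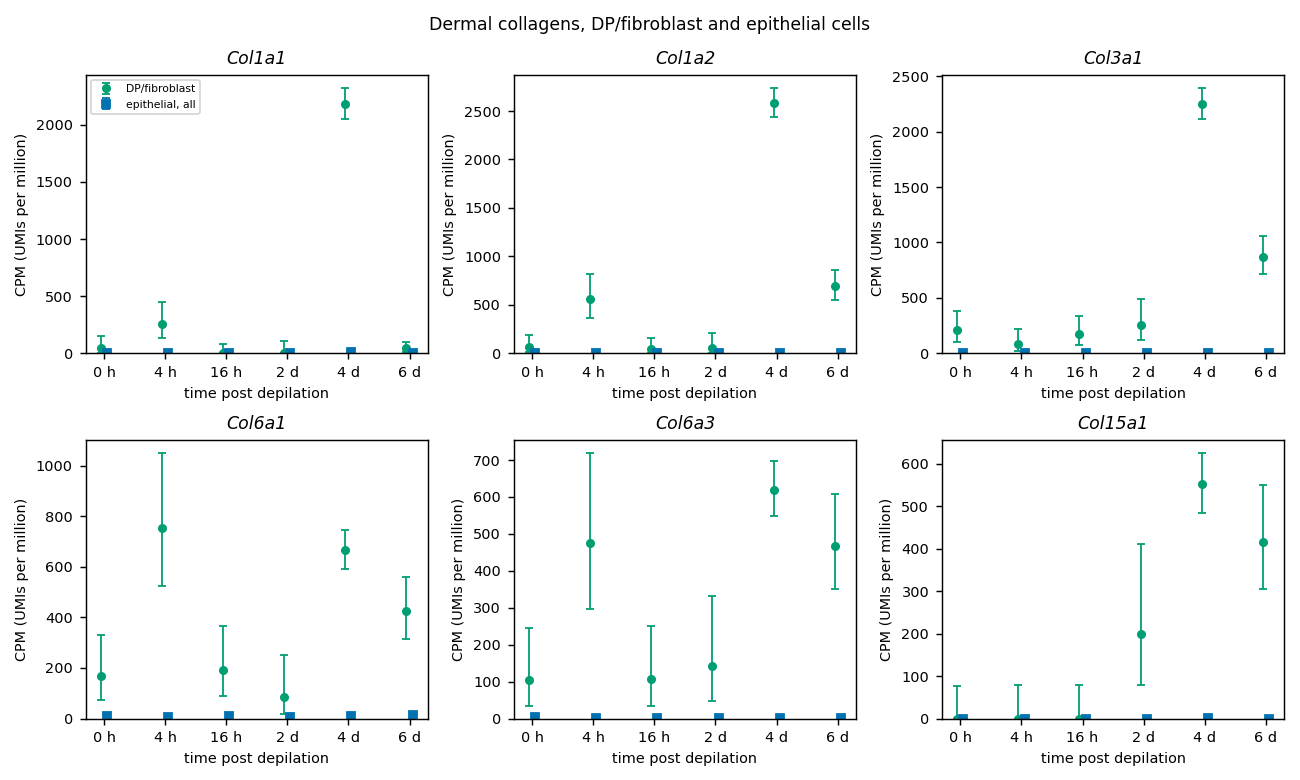
Levels in CPM (y axes) by time post depilation (x axes) of 6 collagen genes in DP/fibroblast cells and in all epithelial cells, with exact Poisson 95% intervals as bars. Col1a1, Col1a2 and Col3a1 are highest at 4 d in DP/fibroblast cells, at 2184, 2586 and 2253 CPM, and the bars of the smaller libraries are wide.

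Col5a1 and Col5a2 encode chains of type V collagen, which sets fibril diameter. Col5a2 measured 70.3, 6.9, 46.7, 51.8, 90.5 and 75.8 CPM in OB3 cells, 41.8, 11.2, 16.5, 25.5, 23.5 and 29 CPM in OB1 cells and 62.7, 64.7, 86, 28.5, 181 and 138 CPM in DP/fibroblast cells. Its dermal range overlapped that of OB3 cells. Col5a1 measured 0.55, 0.863, 1.78, 11.1, 30.2 and 31.3 CPM in OB1 cells, where the 3 later libraries lay above the 3 earlier ones.

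Whether levels changed over the time course was tested in each class with at least 20 cells in every library, by edgeR's quasi-likelihood test of a spline over hours. The 6 libraries leave the fit 2 residual degrees of freedom, and the change is given as the log2 change of the linear part from 0 h to 6 d. In OB1 cells 2 of 21 members tested were called, both rising, where 0.417% of all genes were called. Col5a1 rose by 5.71 (edgeR adjusted p = 0.0447). Col14a1, a fibril-associated collagen, measured 1.1, 0.432, 0.764, 10.7, 247 and 89.8 CPM and rose by 8.29 (edgeR adjusted p = 0.0174). The Col5a1 call was lost with doublets kept (edgeR adjusted p = 0.125), and the Col14a1 call on a log2(hours + 1) scale (edgeR adjusted p = 0.0559). Both were lost with a linear trend alone and with a finer clustering. With each library left out in turn, which leaves 1 residual degree of freedom, both remained called, among 4 (without 16 h) to 17 called members (without 0 h). The share of all genes called rose as well, to 2.75% without 16 h, 20.9% without 0 h, 4.71% without 4 h (8 members) and 2.46 to 3.95% without each of the others (5 members). In each of these fits 1 to 5 members were called lower, Col8a2 among them.

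The other 19 members tested in OB1 were not called. Those nearest were Col27a1 with a log2 change of 4.93 (edgeR adjusted p = 0.0621) and Col8a2 with -3.57 (edgeR adjusted p = 0.0854). At an unadjusted p under 0.05 there were 11 members, beside 1193 of 11042 genes. The median log2 change of the 21 was 1.05, against -0.03 over all genes, and with a library left out it was -0.02 (without 6 d) to 1.61 (without 0 h). By edgeR 0 members were called in the other 10 classes tested, with 0 to 3 members at an unadjusted p under 0.05 in each. The share of all genes called there was 0% in IFE.B, IFE.SB, OB2, OB3, uHF.B and uHF.SB cells, 0.00961% in an unnamed hair follicle cluster, 0.0492% in Langerhans cells, 0.0514% in T cells and 4.58% in melanocytes. DESeq2 called 1 member in IFE.B cells, Col1a2, beside 0.162% of all genes, and its IFE.B UMIs came mostly from the 2 barcodes at 4 d.

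OB1 consisted of 3 clusters whose shares differed with time. Cluster 7, with Krt24 and Cd34 among its leading genes, gave 270 of the 317 OB1 cells at 0 h, and cluster 3, named by the markers of cycling OB1 cells, gave 1483 of the 2183 at 4 d. All 4 cycling markers were up in cluster 3, but its mean log2 difference from the other hair follicle cells over the 9 OB1 markers was -0.27. Those 9 markers summed to 13972, 7410, 7733, 4219, 2488 and 5401 CPM in OB1 cells, and to 2832 CPM in OB2 cells at 4 d. OB1 levels at 4 d thus come mostly from cells low in the OB1 markers. At 4 d and 6 d Col14a1 measured 293 and 204 CPM in cluster 3, 97.5 and 39.1 CPM in cluster 5 and 14.8 and 1.18 CPM in cluster 7. Col5a1 at 6 d measured 31.6, 29.1 and 34.8 CPM in clusters 3, 5 and 7, with overlapping intervals. So Col14a1 differed between the clusters late in the series, while a difference in Col5a1 was not detectable at 6 d. The part of the cluster shares in the OB1 time course was not tested.

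Outside OB1, Col14a1 had a median of 19.5 CPM in IRS2 cells, the highest of any class, over the libraries with enough of them (2 d, 4 d and 6 d). It was above T cells in 3 of 3 of these. The OB1 median over 6 libraries was 5.91 CPM, so the 2 medians cover unlike libraries. In DP/fibroblast cells Col14a1 measured 239 and 129.6 CPM at 4 d and 6 d. It had no UMI there before, where 3 counts would be 62.7 to 85.4 CPM. Of the other fibril-associated members, Col12a1 measured 693, 481, 612, 187, 227 and 238 CPM in melanocytes and 91.4, 66.9, 41.2, 33.6, 46.9 and 119 CPM in OB1 cells, and the ranges did not overlap. Col16a1 measured 118, 46.8, 146, 119, 175 and 131 CPM in Langerhans cells, 131, 262, 198, 83.5, 95.3 and 94.8 CPM in melanocytes and 56.1, 29.7, 69.6, 57.3, 67.4 and 57.6 CPM in IFE.B cells. Both genes thus had their highest median outside the epithelium and the dermal class. Col9a3 measured 48.1, 1.58, 0 and 50.1 CPM in IB cells at 0 h, 4 h, 16 h and 6 d, the libraries with enough of them, above T cells in 2 of 4. Its median there, 24.8 CPM, was 1.58 to 48.1 CPM with a library left out, and IRS3 cells measured 2.25 to 21.8 CPM over 3 libraries, so the 2 classes could not be ordered. It measured 15, 4.39, 4.01, 9.17, 27.1 and 13.4 CPM in OB2 cells.

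**Figure D3:**
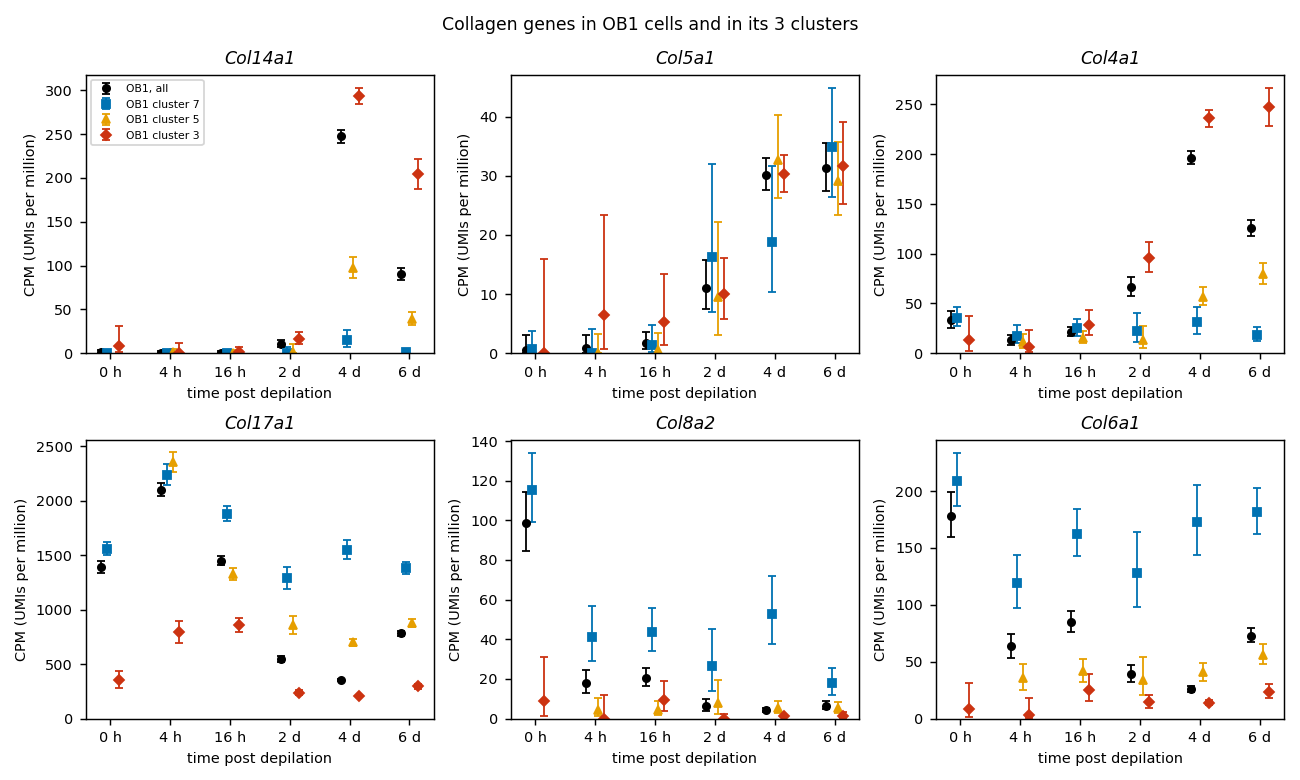
Levels in CPM (y axes) by time post depilation (x axes) of 6 collagen genes in all OB1 cells and in its clusters 7, 5 and 3, with exact Poisson 95% intervals as bars. Cluster 5 had 13 cells at 0 h and is not drawn there. Col14a1 and Col4a1 are highest in cluster 3 at 4 d and 6 d, and Col17a1 and Col6a1 are higher in cluster 7 than in cluster 3 at every time.

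Type IV collagen is the network of basement membranes, and its chains are encoded by head-to-head gene pairs. Col4a1 and Col4a2, the pair found in most basement membranes, measured 272, 410.0, 64.5, 171, 208 and 207 CPM and 105, 259, 108, 85.4, 190.0 and 190.1 CPM in DP/fibroblast cells. In OB1 cells they measured 33, 13, 21.6, 66.5, 196 and 126 CPM and 34.7, 14.7, 19.1, 32.1, 81 and 67.4 CPM. Both were highest at 4 d in OB1 cells, and neither was called (Col4a1 log2 change 2.87, edgeR adjusted p = 0.11). Within OB1 at 6 d, Col4a1 measured 247 CPM in cluster 3 and 18.3 CPM in cluster 7.

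Col4a5 and Col4a6, the pair whose starts are printed above, were low in the 4 h library. Col4a5 measured 28.5, 2.05, 27.3, 32.3, 33.8 and 30.2 CPM in IFE.B cells, 15.9, 1.97, 16, 20.9, 15 and 12.2 CPM in uHF.B cells and 16, 1.73, 9.93, 12.9, 18.5 and 29.7 CPM in OB1 cells. Col4a6 measured 32.2, 9.97, 32.3, 26, 31.3 and 34.7 CPM in IFE.B cells and 23.3, 9.63, 28.9, 19.3, 16.4 and 16.1 CPM in uHF.B cells. In IFE.B cells the 4 h intervals, 1.58 to 2.62 CPM for Col4a5 and 8.9 to 11.1 CPM for Col4a6, overlapped no other library's. After each cell was thinned to 2000 UMIs, 0.539% of IFE.B cells had a Col4a5 UMI at 4 h and 5.39 to 7.29% in the other libraries, against 1.82% and 18.7 to 25.7% unthinned.

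By a rule chosen after these values were seen, a gene was counted where its 4 h level was at least 3-fold below each other library, among genes with at least 10 CPM on average. In IFE.B cells this held for 1 of 8 members, Col4a5, beside 4.46% of all genes, and in uHF.B cells for 2 of 9, Col4a5 and Col8a1, beside 3.99%. Col8a1, a network collagen, measured 32.4, 2.41, 7.25, 19, 15.7 and 12 CPM in uHF.B cells. At least 3-fold above each other library at 4 h was Col23a1 alone, 1 of 8 members in IFE.B beside 2.18% of all genes and 1 of 9 in uHF.B beside 0.995%. The time point and its 1 library cannot be told apart, so these folds have no replicate check.

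Col4a3 and Col4a4 encode the chains that join that of Col4a5 in specialised basement membranes, and they were highest in OB3 cells. Col4a4 measured 122, 17.3, 55.2, 74.4, 155 and 220.5 CPM there, and Col4a3 39.7, 0, 6.37, 15.8, 35.4 and 59.4 CPM, with no UMI at 4 h, where 3 counts would be 10.4 CPM. Both were lowest at 4 h and highest at 6 d, and neither was called in the OB3 time course. In OB1 cells Col4a4 was at 0.863 to 18.7 CPM. Col8a2, another network collagen, measured 72.5, 2.2, 22, 22, 31.6 and 12.5 CPM in OB2 cells and 115, 41.1, 43.9, 26.4, 52.6 and 17.7 CPM in OB1 cluster 7.

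Col17a1, Col7a1, Col18a1 and Col23a1 are the members that tie or bind epithelial cells to the basement membrane and matrix. Col17a1 measured 918, 1841, 1639, 1102, 1365 and 1241 CPM in IFE.B cells, 1386, 2100.0, 1449, 547, 353 and 782 CPM in OB1 cells and 31.6, 59.1, 43.6, 36.9, 18.3 and 15.1 CPM in T cells. In IFE.B cells 98.9 to 100% of cells had a Col17a1 UMI at median depths of 6110.5 to 11000 UMIs, against 2.66 to 9.68% of T cells at 2020 to 2702 UMIs. Thinned to 2000 UMIs the shares were 84.2 to 96.4% and 1.94 to 7.76%, leaving out 10 to 67 IFE.B and 35 to 397 T cells per library as too shallow. Within OB1, cluster 7 measured 1559.7, 2238, 1879.8, 1289, 1550.0 and 1382 CPM and cluster 3 354, 793, 857, 236, 208 and 294 CPM, so cluster 7 was higher in all 6 libraries.

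Col18a1 measured 36.9, 169.8, 116, 82.5, 80.2 and 96.1 CPM in IFE.B cells and 216, 465, 395, 149, 185 and 268 CPM in OB1 cells, higher in OB1 within each library and highest at 4 h in both. Col7a1 measured 79.7, 38.6, 90.9, 112, 108 and 109 CPM in IFE.B cells and 90.8, 29.4, 55.3, 50.6, 46.9 and 92.3 CPM in OB1 cells, lowest at 4 h in both. Col23a1 measured 62.1, 210.3, 50.5, 54.4, 39.8 and 39 CPM in IFE.B cells, 21.6, 90.8, 17.8, 19.4, 8.43 and 9.16 CPM in uHF.B cells and 418, 173, 387, 114, 418 and 501 CPM in DP/fibroblast cells, and at most 1.73 CPM in OB1 cells. In IFE.B cells the 4 h library was thus the highest for Col18a1 and Col23a1 and the lowest for Col7a1. Col15a1, a collagen of the basement membrane zone, measured 0, 0, 0, 199, 552 and 415 CPM in DP/fibroblast cells.

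**Figure D4:**
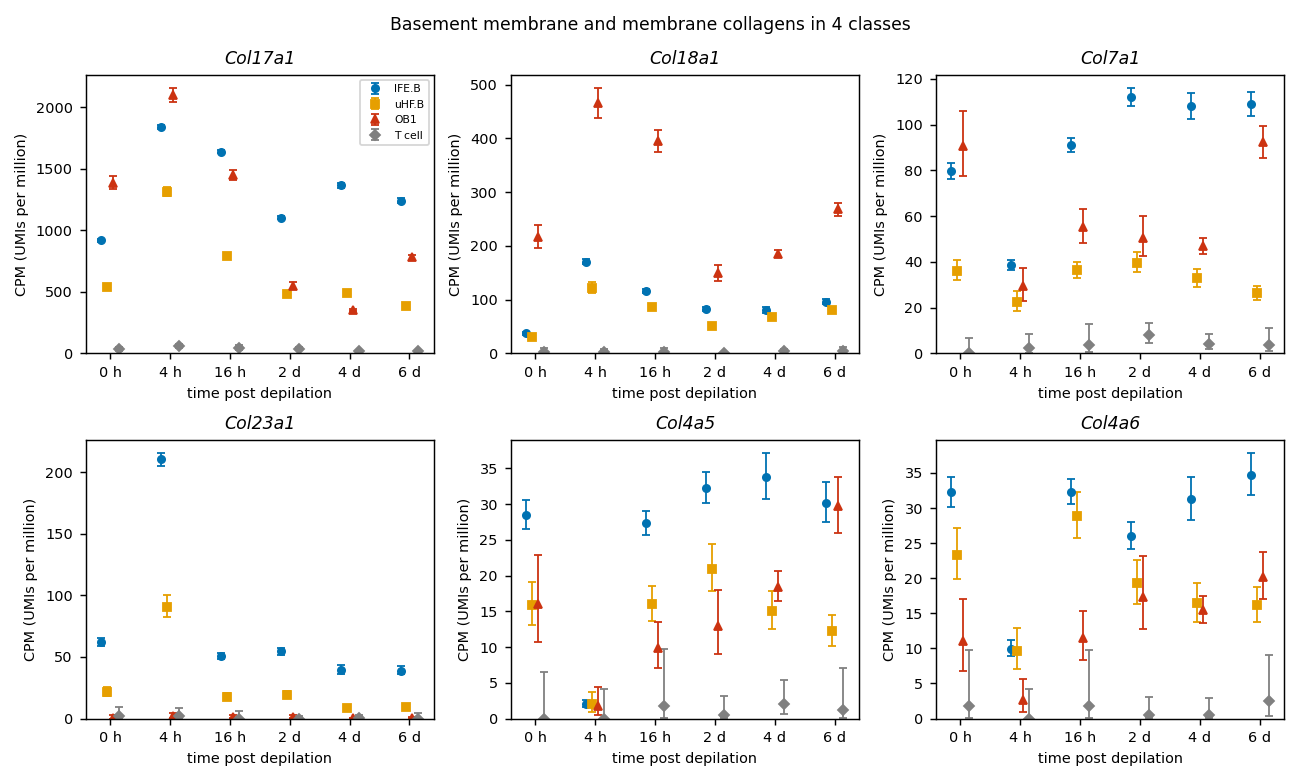
Levels in CPM (y axes) by time post depilation (x axes) of 6 collagen genes in IFE.B, uHF.B, OB1 and T cells, with exact Poisson 95% intervals as bars. In IFE.B cells Col4a5, Col4a6 and Col7a1 are lowest at 4 h, the library in which Col17a1, Col18a1 and Col23a1 are highest.

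Type VI collagen forms beaded filaments, and its 3 main chains had their highest median in the dermal class, with Col6a1 also in the bulge. In DP/fibroblast cells Col6a1 measured 167, 755, 194, 85.4, 666 and 423 CPM, Col6a2 251, 561, 64.5, 114, 382 and 277 CPM and Col6a3 105, 475, 108, 142, 619 and 467 CPM. Col6a1 measured 105, 59.3, 85.1, 64.2, 102 and 83.5 CPM in OB2 cells and 209, 119, 162, 128, 173 and 182 CPM in OB1 cluster 7, while Col6a3 reached at most 4.39 CPM in OB2 cells. The chains were thus not in 1 ratio across the classes.

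To set dermal against epithelial sources, members were counted whose lowest library in one class lay above the highest library in the other, among genes with at least 10 counts. DP/fibroblast cells lay above all epithelial cells for 8 of 37 members, beside 2.41% of all genes: Col1a2, Col3a1, Col5a2, Col4a1, Col4a2, Col6a1, Col6a2 and Col6a3. Their lowest dermal libraries held few counts. Col1a2 had 2 UMIs at 16 h and at 2 d, and Col5a2 lay below the level of 3 counts at 2 d. Col4a1, Col4a2, Col6a1 and Col6a2 were at 3 counts in their lowest library. For these members the separation thus rests on few counts in a library. Epithelial cells lay above for 8 members, beside 21.1% of all genes. Of these 8, Col2a1, Col11a2, Col9a3, Col20a1, Col4a4 and Col8a2 had no UMI in the dermal class, as did 3306 of the 3833 genes that lay above. With 738963 UMIs in that class, 0 counts allow up to 4.99 CPM over the series and 3 counts are 62.7 to 85.4 CPM per library before 4 d, so for these 6 a difference was not detectable library by library. The others were Col4a6 and Col17a1. Col4a6 had 3 dermal UMIs, all at 4 d, and reached at most 34.7 CPM in any class with at least 20 cells. Before 4 d its difference was thus not detectable either. Col17a1 measured 0, 324, 0, 0, 40.2 and 173 CPM in DP/fibroblast cells and 586, 1254, 967, 594, 467 and 499.9 CPM in epithelial cells. The dermal class in the whole series had Krt14 at 1295 CPM. Without the highest dermal cell of each library and the 2 IFE.B barcodes, 6 members were higher in DP/fibroblast cells, Col1a2 and Col6a2 no longer among them, beside 2.25% of all genes, and 9 in epithelial cells beside 21.2%. In the 4 d and 6 d libraries alone, which have most of the dermal cells, DP/fibroblast cells lay above for 20 of 35 members beside 29.3% of all genes and epithelial cells for 15 beside 35.9%.

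Within the epithelium, OB1 lay above IFE.B cells for 10 of 30 members, beside 7.95% of all genes: Col5a2, Col27a1, Col4a1, Col4a2, Col4a4, Col8a1, Col8a2, Col25a1, Col6a1 and Col6a2. Of these, Col25a1 had 2, 3, 1 and 2 UMIs over all cells at 0 h, 4 h, 16 h and 2 d, so its separation rests on few counts. It was above T cells in 1 of 6 OB1 libraries. IFE.B lay above OB1 cells for 1 member, Col23a1, beside 3.52% of all genes.

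Genes that modify, process, bind or receive collagens were read from 5 lists. Over all genes tested in OB1 cells, edgeR called 0.417%, and 1193 of 11042 had an unadjusted p under 0.05. Of the listed genes there, 0 of 19 of chain modification and folding were called (3 at that unadjusted p). The same counts were 0 of 3 for processing and cross-linking (1) and 0 of 5 for receptors (2). They were 0 of 8 for hemidesmosome partners (3) and 1 of 3 for fibril-binding proteoglycans (3). The called gene was Dcn, which measured 0, 0, 0.764, 22.5, 4.57 and 7.89 CPM and rose by 10.35 as a log2 change (edgeR adjusted p = 0.0497), a fitted size that depends on how counts of 0 are treated. In the other classes Plec, a linker of the hemidesmosome, fell in melanocytes (log2 change -1.82, edgeR adjusted p = 0.006), where 4.58% of all genes were called. No other listed gene was called in those classes.

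Of the folding genes, the procollagen chaperone Serpinh1 had a median of 178 CPM in DP/fibroblast, 125 CPM in OB1, 46.4 CPM in IFE.B and 3.15 CPM in T cells. Of the processing genes, Pcolce, an enhancer of procollagen cleavage, had a median of 71.6 CPM in DP/fibroblast and 0.28 CPM in IFE.B cells. The collagen receptor Ddr2 had a median of 163 CPM in DP/fibroblast and 0.491 CPM in OB1 cells, and Ddr1 14.1 and 91.4 CPM. In IFE.B and IFE.SB cells Ddr2 was at 9.03 and 24.6 CPM. Of the hemidesmosome partners of Col17a1, Itga6 and Itgb4 had medians of 532 and 219 CPM in IFE.B cells, and Bgn, a proteoglycan, 246 CPM in DP/fibroblast and 57.5 CPM in OB1 cells.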

How the data were processed

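Dorsal skin cells of 6 libraries, 1 per time point, were measured with the 10x 3' kit. The authors deposited UMI counts per gene and cell, made with Cell Ranger 6.1.2 on mm10 per the labels, and no normalization had been applied. Cells with 500 to 7000 genes and at most 10% mitochondrial UMIs were kept (55177 of 61031 barcodes). Doublets were removed by Scrublet score in scanpy 1.11.5 at a fixed rate that grew with the barcode number (4675 cells), since its own threshold called 1168. Total UMIs per library were 7.26e+07 to 1.12e+08.

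Cells were integrated and clustered in Seurat 5.3.0 (R 4.3.3; 2000 variable genes, 30 components, resolution 0.2, hair follicle cells again at 0.4), with 308 collagen, partner and cell cycle genes kept out. A cluster took a class name from at least 3 markers. Counts were summed per library and class. The time course was tested with edgeR 4.0.16 (quasi-likelihood, natural spline of hours with 3 degrees of freedom, Benjamini-Hochberg FDR 0.05 over all genes tested). A simulation used the OB1 means and library sizes for 11042 genes, 200 of them with a linear change, and a dispersion of 0.05 for every gene. There the test recovered 87% of genes changed by a log2 of 2 and 100% of those changed by 5, and called 0.0646% of unchanged genes. That dispersion was set and not estimated from these data. The shares are therefore not the power or error rate of the test on the measured libraries. Libraries are not replicated, so p-values measure the spread that the curve leaves between libraries. Classes were compared by description, without a test.

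Levels are given for members with at least 200 UMIs and 10 CPM in a library of a class with at least 20 cells, or called over time. Col4a3, with fewer UMIs, is given beside Col4a4 and was chosen after its values were seen. Partner genes named are among the 4 highest of their list by median in a class described, or were called. The members, lists and markers were chosen with earlier results of these data known. Alternatives were DESeq2 1.42.0, other time scales, no filter on low counts, doublets kept, another gene limit, a finer clustering and leaving out each library. Another 3 were chosen after seeing the data.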

Additional observations from a re-analysis of the deposited data

How the results depend on the processing

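No paired analysis was possible because each time point is 1 library, so the replicate number 1 that the labels share pairs nothing. In OB1 cells the 2 called members, beside 0.417% of all genes, became 7 with DESeq2 (5 higher and 2 lower, beside 5.1% of all genes), 10 on a log2(hours + 1) scale (5 higher and 5 lower, beside 14%), 8 by rank of time (6 higher and 2 lower, beside 8.11%), 5 without the filter on low counts (4 higher and 1 lower, beside 1.84%), 1 with doublets kept (beside 0.0359%), and 0 with a linear trend alone or at resolution 0.8, where 0% of all genes were called. Col17a1 and Col8a2, not called in the fit reported, were called lower with DESeq2, on the log2 scale and by rank. In other classes, where 0 were called, DESeq2 called 1 in IFE.B cells (Col1a2, beside 0.162% of all genes), the log2(hours + 1) scale called 1 in OB2 (beside 3.21%), 5 in OB3 (beside 6.59%) and 1 in melanocytes (beside 14.4%), and rank of time called 2 in OB3 (beside 2.54%) and 1 in melanocytes (beside 10.9%). At resolution 0.8 the IRS2 class, not tested in the fit reported, had enough cells in every library. There 3 of 10 members were called, Col17a1, Col4a1 and Col7a1 (1 higher and 2 lower, beside 5.02% of all genes). The causes were not tested. Leaving out 1 library at a time, with 1 residual degree of freedom, gave 4 to 17 called members in OB1 (beside 2.46 to 20.9% of all genes), 0 to 4 in OB3 (0.259 to 5.23%), 0 to 2 in OB2 (0 to 5.05%), IFE.SB (0 to 3.17%) and melanocytes (2.07 to 6.71%), and 0 to 1 in IFE.B (0 to 0.0157%), T cells (0.354 to 8.35%) and the unnamed hair follicle cluster (0 to 3.31%). The DP/fibroblast share of collagen UMIs was 1.67% with doublets kept and 0.250 to 1.67% with a library left out. Its share of Col1a1, Col1a2 and Col3a1 UMIs was 34.2 to 75.0% over the alternatives, being 34.2 to 68.3% with a library left out and 75.0% without the highest dermal cells and the 2 IFE.B barcodes. Members higher in each IFE.B than each OB1 library numbered 1 to 3 with a library left out. With the 4 d and 6 d libraries alone, 20 members were higher in DP/fibroblast (beside 29.3% of all genes) and 15 in epithelial cells (beside 35.9%), which follows in part from fewer libraries having to be separate. The cell exclusions and the restriction to 4 d and 6 d were chosen after seeing the data. Dermal levels are limited by depth: before 4 d, 3 counts in that class are 62.7 to 85.4 CPM. The class with the highest median was the same for 22 of the 25 members described by level with doublets kept, and for 20 to 25 with a library left out.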
